A study of Mus musculus with 6 samples.

Results

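Genes of translation initiation and ribosome biogenesis were examined in mouse haematopoietic stem cells (HSC), obtained from bone marrow by flow cytometry. A member was any gene whose platform symbol names a numbered eukaryotic initiation factor (Eif1 to Eif6, without Eif2ak2), a Nop, Utp, Rrp or Polr1 protein, or is Ncl, Npm1, Fbl, Nolc1, Dkc1, Bop1, Pes1, Wdr12, Ubtf or Rrn3. This gave 87 of 18186 genes, with 215 of the array's 44991 probe sets. By the role groups used below, 46 members were initiation factors and 41 were ribosome biogenesis factors. The brightest probe set on average stood for each gene, and all 87 members had a value on every array. The symbols Eif2s1, Eif4g1 and Eif4ebp3 were not analysed here.

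The series compared wildtype (WT) with PU.1 knockdown (PU.1 KD) animals. PU.1 is the product of Spi1, and this ETS transcription factor directs the formation of myeloid and B cells. Each group had 3 Affymetrix Mouse Genome 430 2.0 arrays, and each array held HSC RNA pooled from 3 animals. The RNA was amplified in 2 rounds, which starts from little material and adds noise. The sources used here do not give how PU.1 was reduced, which markers were sorted on, or the animals' age, sex and strain.

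Protein synthesis starts when a small ribosomal subunit, loaded with initiator tRNA by eIF2 and held by eIF3 and smaller factors, is brought to the mRNA cap by the eIF4 proteins. Ribosomes themselves are built in the nucleolus. There RNA polymerase I copies the ribosomal DNA, small nucleolar ribonucleoproteins (snoRNPs) modify the transcript, and the processing factors cut and fold it into both subunits. HSC are known for a low rate of protein synthesis compared with the progenitors they give rise to.

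Values below are log2(intensity + 16) after quantile normalisation, and pools are listed in the order 1, 2, 3. Differences are PU.1 KD minus WT on this scale, with their standard error (SE) from limma, and understate the change of weak probe sets. Adjusted p-values are those of limma after the Benjamini-Hochberg procedure on the whole table of 44991 probe sets, read at a threshold of 0.05. With 3 pools against 3, an exact permutation test of a single gene cannot go below p = 0.1. In bulk samples of this kind, fewer cells of a type and less RNA per cell cannot be told apart.

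Array medians of the deposited intensities lay between 81.4 and 91.5 and were lower in each PU.1 KD pool than in each WT pool. The targeted gene, Spi1 (probe set 1418747_at), had log2 values of 10.13, 9.42 and 10.08 in WT and 8.73, 8.55 and 7.06 in PU.1 KD pools. Its groups did not overlap, and pool PU.1 KD 3 was lowest. The difference of -1.76 (SE 0.43) had a limma Benjamini-Hochberg adjusted p of 0.50. Of the 12 listed HSC markers 10 were measured, Cd48 and Flt3 of progenitors among them, and 0 of the 10 had a mean below that of the median gene. Their mean log2 value was 9.69 to 10.64 in WT and 9.96 to 10.13 in PU.1 KD pools. This does not set HSC markers apart, since 0 of the 9 neutrophil markers lay below the median gene either. The neutrophil markers were brighter, with a mean of 11.0 to 12.6 in WT and 12.1 to 12.5 in PU.1 KD pools.

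No member passed the test. The number of probe sets with an adjusted p under 0.05 was 0 of 44991 (0%), with a lowest adjusted p of 0.17 overall and of 0.38 among members. The PU.1 KD mean was higher in 64 members and lower in 23, so 73.6% had a higher mean beside 53.4% of all genes. The median difference of the members was 0.087, about 1.06-fold, beside 0.018 over all genes. The differences were small: 39 members differed by less than 0.1 in either direction, and 12 by more than 0.3, each of these 12 with the higher mean in PU.1 KD pools. An unadjusted limma p under 0.05 was found for 4 members, namely Polr1b, Eif2d, Bop1 and Rrp8, all with higher means in PU.1 KD pools, where 4.1% of all genes had such a p with a higher mean and 3.52% with a lower one.

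For 19 members (21.8%) each PU.1 KD pool lay above each WT pool, and for 0 the reverse. Among all genes, 8.42% lay wholly above and 5.39% wholly below. Most members had bright probe sets, with a mean above that of the median gene in 83 of 87, so the share among genes above the median gene is the closer background, at 9.62% above and 5.64% below. Counted over probe sets, 33 of the 215 (15.3%) lay wholly above and 3 (1.40%) wholly below, beside 7.59% and 5.26% of all probe sets. The 3 wholly below belonged to Eif4e2, Eif4g3 and Wdr12, and in none of these was it the brightest probe set of the gene.

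The count of 19 depended on how a gene was summarised. With the median of a gene's probe sets in place of the brightest, 11 of 87 members (12.6%) lay wholly above and 2 (2.30%) wholly below, beside 8.57% and 5.22% of all genes under that setting. Leaving out a pool leaves fewer values to separate, so the share of all genes rises too. Without pool PU.1 KD 3 the count above was 31 (35.6%), beside 14.0% of all genes under that setting. Without pool WT 3 it was 27 (31%), beside 13.6% of all genes. Of the 14 among the 19 that have several probe sets, 7 had a difference of the same sign on each of them. Most alternative settings keep a gene's values or their order, or drop a pool, and so could hardly bring separated groups to overlap. The 4 that could are the deposited values, median centring, the median of probe sets and the removal of probe sets ending in _x_at or _s_at. Under these 4 the groups stayed apart in 8 members, Polr1b, Eif2d, Bop1, Rrp8, Rrp36, Nop10, Nop14 and Eif3c. Of these 8, Polr1b, Rrp8, Rrp36 and Nop14 have 1 probe set each, so that for them the scalings alone could have changed the outcome.

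**Figure D1:**
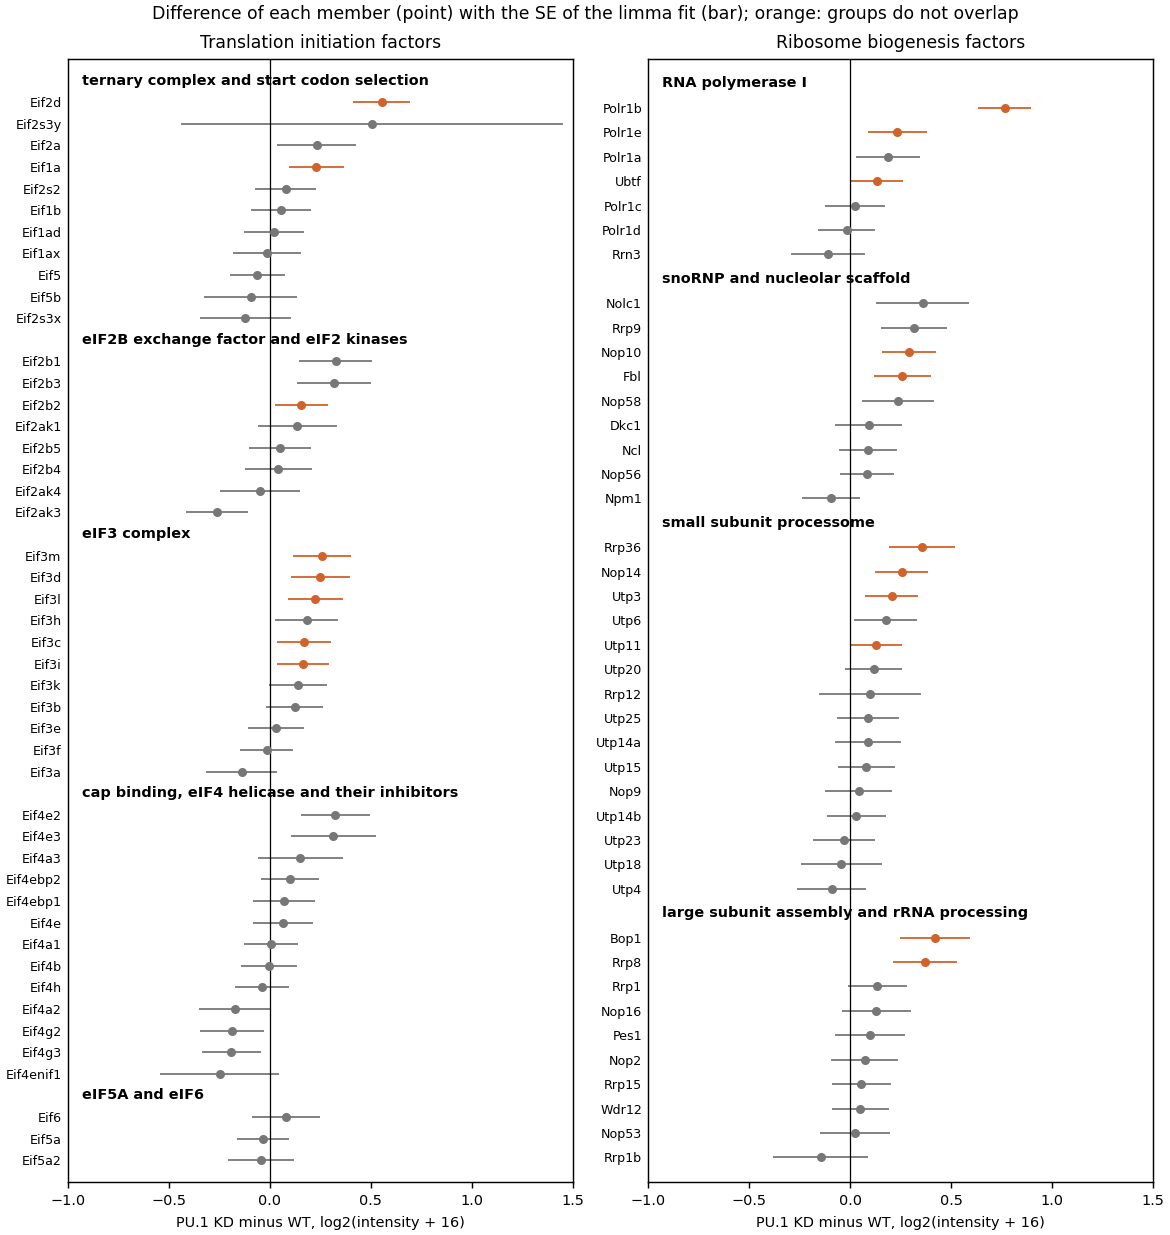
Difference of each of the 87 members between PU.1 KD and WT pools (x axis, log2(intensity + 16)) by role, initiation factors at left and ribosome biogenesis factors at right. Points are differences, bars the SE of the limma fit, and orange marks the 19 members whose groups did not overlap. Polr1b at 0.77 and Eif2d at 0.55 lie farthest to the right among these, and Eif2s3y has the widest bar, with an SE of 0.95.

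RNA polymerase I showed the largest single difference among the members. Polr1b (1416126_at), a catalytic core subunit of the enzyme, had log2 values of 7.97, 8.03 and 7.94 in WT and 8.65, 8.77 and 8.82 in PU.1 KD pools. All 3 PU.1 KD pools lay well above the WT pools, with a gap of 0.62 between the nearest pools of the groups. The difference was 0.77 (SE 0.13), or 1.70-fold, with an adjusted p of 0.38 by limma with Benjamini-Hochberg adjustment. On the deposited scale the intensities were 230 to 264 in WT and 344 to 446 in PU.1 KD pools. The gene has 1 probe set, so no other probe set bears on it.

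The other 6 members of the polymerase I group were closer to 0. Polr1e, an enzyme subunit of the dissociable pair that aids initiation, had values of 7.55, 7.70 and 7.72 in WT and 7.94, 8.01 and 7.72 in PU.1 KD pools. These groups are separated by a gap of only 0.0069. Ubtf, which binds the ribosomal DNA promoter, had values of 9.78, 9.82 and 9.67 beside 9.84, 9.95 and 9.86, again just apart, with a difference of 0.13 (SE 0.13). Rrn3, which links the polymerase to its promoter, overlapped, with a difference of -0.11 (SE 0.18). Polr1d, a subunit shared with RNA polymerase III, differed by -0.02 on its brightest probe set and by up to 0.40 on another, so its probe sets did not give 1 answer. Over the 7 genes the median difference was 0.13, and 5 had a higher mean in PU.1 KD pools. Among these 5 was Polr1a, named after its values were seen, at 0.19 (SE 0.16) with overlapping groups. Only this brightest of its 5 probe sets had the higher mean, and the lowest of the others gave -0.55.

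The snoRNP and nucleolar scaffold genes had a median difference of 0.24, with a higher PU.1 KD mean in 8 of 9. The median was 0.11 without pool PU.1 KD 2, 0.13 without WT 1 and 0.14 without WT 2. Nop10 (1423210_a_at), a small core protein of the H/ACA snoRNPs that guide pseudouridylation, had values of 12.10, 12.10 and 11.97 in WT and 12.28, 12.44 and 12.33 in PU.1 KD pools. Its difference was 0.29 (SE 0.13), with a limma Benjamini-Hochberg adjusted p of 0.72. Fbl, the methyltransferase of box C/D snoRNPs, had values of 11.30, 11.39 and 11.50 in WT and 11.76, 11.68 and 11.53 in PU.1 KD pools, a difference of 0.26 (SE 0.14). In both genes the groups did not overlap, although pool PU.1 KD 3 of Fbl lay only 0.03 above pool WT 3.

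Other genes of this group overlapped. Rrp9, a protein of the U3 snoRNP, differed by 0.32 (SE 0.16). Nolc1, a scaffold of the nucleolus and Cajal bodies that was singled out after its values were seen, differed by 0.36 (SE 0.23), and its 3 probe sets by 0.24 to 0.66. Dkc1, the pseudouridine synthase that works with Nop10, differed by 0.09 (SE 0.16). Ncl (nucleolin), an abundant nucleolar protein, differed by 0.09 (SE 0.14) on its brightest probe set, with overlapping groups. All 5 probe sets of Ncl had the higher mean in PU.1 KD pools, by 0.0094 to 0.50, and on 1456528_x_at (0.19, SE 0.13) and 1442404_at (0.41, SE 0.15) the groups did not overlap. Npm1 (nucleophosmin) differed by -0.10 (SE 0.14) on the brighter of its 2 probe sets and by 0.12 (SE 0.14) on the other, and the first turned to 0.0011 with median centring.

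Among small subunit processome genes, which cut and fold the small subunit's rRNA, 12 of 15 had a higher mean in PU.1 KD pools, with a median difference of 0.087. Rrp36, a factor of the early cleavages, had values of 8.51, 8.57 and 8.45 in WT and 9.13, 8.82 and 8.65 in PU.1 KD pools. All PU.1 KD pools were higher, pool 1 most, and the difference was 0.36 (SE 0.16). Nop14 had values of 9.15, 9.08 and 9.06 beside 9.44, 9.36 and 9.26, with a difference of 0.25 (SE 0.13). Utp3 differed by 0.21 (SE 0.13) and was also without overlap, as was Utp11, by 0.13 (SE 0.13). On the other side stood Utp4 at -0.09 (SE 0.17) and Utp18 at -0.04 (SE 0.20), both with overlapping groups.

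Large subunit factors had a higher PU.1 KD mean in 9 of 10, with a median difference of 0.085. Bop1 (1423264_at), which with Pes1 and Wdr12 forms the PeBoW complex of large subunit maturation, had values of 9.38, 8.92 and 9.43 in WT and 9.73, 9.69 and 9.59 in PU.1 KD pools. The groups were apart and pool WT 2 was lowest, and the difference was 0.42 (SE 0.17), with an adjusted p of 0.69 by limma with Benjamini-Hochberg adjustment. Its partners overlapped on their brightest probe sets, with Pes1 at 0.10 (SE 0.17) and Wdr12 at 0.05 (SE 0.14). The dimmer probe sets of Wdr12 went both ways, with 1417270_at wholly below at -0.53 (SE 0.22) and 1459762_x_at overlapping at 0.38 (SE 0.16). Rrp8, a nucleolar methyltransferase acting on large subunit rRNA, had values of 9.13, 9.0 and 9.16 in WT and 9.72, 9.36 and 9.31 in PU.1 KD pools. Its difference of 0.37 (SE 0.16) rested most on pool PU.1 KD 1. Nop53 overlapped at 0.02 (SE 0.17). Rrp1b, by contrast, differed by -0.15 (SE 0.23) on its brightest probe set and by 0.41 (SE 0.17) on 1452118_at, where the groups did not overlap.

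Among the initiation factors, Eif2d stood out. It encodes a factor that can deliver tRNA to the ribosome without eIF2. Its probe set 1451211_a_at had values of 8.99, 9.19 and 9.13 in WT and 9.73, 9.53 and 9.71 in PU.1 KD pools, with a gap of 0.34 between the groups. The difference was 0.55 (SE 0.14), with a limma Benjamini-Hochberg adjusted p of 0.53. Eif2d has 6 probe sets, and the 3 brightest were without overlap, at 0.55, 0.27 and 0.28. The remaining 3 overlapped, at 0.07, -0.06 and -0.14.

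The promoter stretches of Polr1b and Eif2d, the members with the largest differences without overlap, are shown for reference. They are the 130 bases before the RefSeq transcription start on GRCm38.p6, 5′ to 3′ on the gene's strand, with no capitals.
Polr1b, chr2:129100866-129100995, plus strand: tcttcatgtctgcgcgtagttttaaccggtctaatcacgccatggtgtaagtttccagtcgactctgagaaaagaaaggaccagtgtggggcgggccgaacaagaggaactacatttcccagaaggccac
Eif2d, chr1:131153077-131153206, plus strand: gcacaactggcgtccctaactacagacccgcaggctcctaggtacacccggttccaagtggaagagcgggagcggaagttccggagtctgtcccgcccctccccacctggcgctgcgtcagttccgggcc

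The other genes of the ternary complex and of start codon selection had a median difference of 0.05 as a group of 11, with higher PU.1 KD means in 7. Eif1a, a factor of scanning and start codon choice, had values of 9.74 to 9.84 in WT and 9.92 to 10.14 in PU.1 KD pools. The groups did not overlap on this probe set (difference 0.23, SE 0.14), and the gene's other probe set gave -0.13. The suffix _s_at of the brighter one marks probes shared between transcripts. Eif5, the GTPase activator of eIF2, overlapped at -0.06 (SE 0.14).

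Eif2s3x and Eif2s3y encode the gamma subunit of eIF2 on the X and Y chromosomes, and their values differed between pools in a way that the groups do not explain. Eif2s3y had values of 4.30, 7.95 and 8.30 in WT and 7.10, 7.93 and 7.03 in PU.1 KD pools, so pool WT 1 lay near the floor of 4.09. The Y-linked gene Kdm5d was likewise low in pool WT 1, at 4.11, beside 6.80 to 8.01 in the other pools. Xist, the RNA of the inactive X chromosome, had values of 12.17, 11.85 and 6.74 in WT and 11.64, 7.05 and 12.06 in PU.1 KD pools. Pool WT 1 thus had Xist and hardly any Y-linked signal, pools WT 3 and PU.1 KD 2 had Y-linked signal with little Xist, and the remaining 3 pools had both. Eif2s3x was highest in pool WT 1, with 10.27 beside 9.38 to 9.69 in the others. The difference of Eif2s3y was 0.51 (SE 0.95) with all pools and -0.77 without pool WT 1. That of Eif2s3x was -0.12 (SE 0.23) with all pools and 0.13 without it. Without Eif2s3y the median difference of the other 86 members was 0.087. The part of this sex-linked signal in the other differences was not tested.

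**Figure D2:**
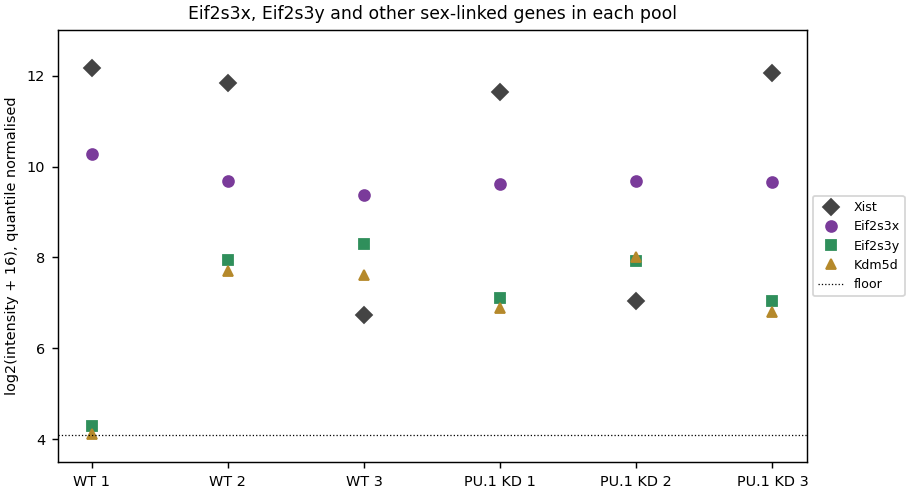
log2(intensity + 16) of Xist, Eif2s3x, Eif2s3y and Kdm5d (y axis) in each of the 6 pools (x axis), 1 point per gene and pool, with a dotted line at the floor of 4.09. Eif2s3y and Kdm5d lie near the floor in pool WT 1, at 4.30 and 4.11, and Xist is low in pools WT 3 and PU.1 KD 2.

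The exchange factor eIF2B recharges eIF2, and the eIF2 kinases block this step under stress. Eif2b2 had values of 10.37, 10.36 and 10.32 in WT and 10.52, 10.59 and 10.41 in PU.1 KD pools. It was without overlap, with a difference of 0.16 (SE 0.13). Eif2b1 differed by 0.33 (SE 0.18) and Eif2b3 by 0.32 (SE 0.18), both with overlapping groups. Of the kinases, Eif2ak3 (PERK, the kinase of the endoplasmic reticulum) had the lowest difference of all 87 members, -0.26 (SE 0.15). Its values were 8.80, 8.44 and 8.77 in WT and 8.51, 8.34 and 8.38 in PU.1 KD pools, and the median of its probe sets gave 0.05. Eif2ak4 (GCN2, the kinase of amino acid shortage) differed by -0.05 (SE 0.20). The group of 8 had a median difference of 0.094, with 6 higher means.

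The eIF3 complex, the largest initiation factor and the scaffold on the small subunit, had 5 of 11 subunits wholly above (45.5%, beside 8.42% of all genes) and 0 wholly below. The median difference was 0.16 (0.09 without pool PU.1 KD 1), with a higher PU.1 KD mean in 9. Eif3m had values of 9.91, 9.91 and 10.02 in WT and 10.34, 10.24 and 10.03 in PU.1 KD pools, and Eif3d of 11.26, 11.31 and 11.22 beside 11.69, 11.53 and 11.32. In both, pool PU.1 KD 3 lay only 0.01 above the highest WT pool. The differences were 0.26 (SE 0.14) and 0.25 (SE 0.15), and the other probe set of each gave -0.04 and -0.20. Eif3c, Eif3l and Eif3i, singled out after their values were seen, were also apart, at 0.17 (SE 0.13), 0.23 (SE 0.14) and 0.16 (SE 0.13). Only Eif3c of these 5 had the same sign on each of its probe sets, 4 in all, at 0.14 to 0.18. Eif3a, the largest subunit, differed by -0.14 (SE 0.18) and Eif3f by -0.02 (SE 0.13), both overlapping. With the median of the probe sets, 1 eIF3 subunit was wholly above (9.09%, near the 8.57% of all genes) and the median difference was 0.04. With values as deposited the count was 6 (54.5%, beside 5.54% of all genes) and the median 0.19.

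Promoter letters were set beside the values, and the eIF3 subunits, picked for this after their values were seen, are printed as an example. RefSeq promoter windows of 300 bases, 250 before the start and 50 after it (GRCm38.p6), were at hand for 70 of the 87 members, among them 14 of the 19 without overlap and 8 of the 11 eIF3 subunits. Each window was searched on both strands for CCGGAAG, a core bound by many ETS factors; GAGGAAGT, the purine-rich form that PU.1 favours; CACGTG, the E-box bound by Myc with Max; and TGANTCA, the AP-1 site. CCGGAAG and GAGGAAGT share the letters GGAAG but cannot match at the same ones. Other overlaps were allowed, and in Eif3f the letters of TGANTCA run into CACGTG. Of the 8 subunits, Eif3c, Eif3d, Eif3l and Eif3m hold CCGGAAG and were without overlap, Eif3a, Eif3f and Eif3k hold CACGTG and overlapped, and Eif3b holds neither of these and overlapped. This split within eIF3 was less complete in the members at large. There CCGGAAG was held by 8 of the 14 members without overlap and by 17 of the 56 that overlapped. The stretches are printed for the 4 with CCGGAAG and for Eif3f and Eif3k, as the 130 bases before the start, 5′ to 3′ on the gene's strand. Capitals mark CCGGAAG (or its reverse, CTTCCGG) in the first 4 and CACGTG in the others. In Eif3m the letters of GAGGAAGT also occur, left in lower case.
Eif3c, chr7:126566367-126566496, minus strand: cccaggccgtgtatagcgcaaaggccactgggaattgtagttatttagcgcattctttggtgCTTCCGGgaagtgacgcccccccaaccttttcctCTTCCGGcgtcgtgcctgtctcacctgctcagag
Eif3d, chr15:77970825-77970954, minus strand: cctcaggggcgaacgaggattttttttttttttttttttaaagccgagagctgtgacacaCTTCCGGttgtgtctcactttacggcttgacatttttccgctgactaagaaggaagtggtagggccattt
Eif3l, chr15:79075093-79075222, plus strand: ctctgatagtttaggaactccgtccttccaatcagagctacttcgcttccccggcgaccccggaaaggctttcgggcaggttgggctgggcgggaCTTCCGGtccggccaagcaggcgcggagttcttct
Eif3m, chr2:105017028-105017157, minus strand: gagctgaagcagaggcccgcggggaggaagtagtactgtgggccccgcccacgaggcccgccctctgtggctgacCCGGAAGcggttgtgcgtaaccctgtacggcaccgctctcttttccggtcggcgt
Eif3f, chr7:108934285-108934414, plus strand: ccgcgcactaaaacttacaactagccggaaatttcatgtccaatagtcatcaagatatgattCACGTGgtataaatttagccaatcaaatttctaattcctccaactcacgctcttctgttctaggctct
Eif3k, chr7:28981889-28982018, minus strand: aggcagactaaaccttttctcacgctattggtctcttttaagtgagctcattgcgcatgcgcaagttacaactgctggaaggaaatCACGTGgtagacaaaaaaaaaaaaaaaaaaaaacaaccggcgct

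Over all members with a window, CCGGAAG was held by 25 of 70 (35.7%), beside 9.93% of 27025 genes, and by 8 of the 14 without overlap (57.1%). The 27025 are all genes with a window, measured here or not, and no background of bright genes was searched. CACGTG was held by 17 of 70 (24.3%), beside 8.09% of genes, and by 0 of the 14 without overlap. The median difference was 0.0074 for members with CACGTG and 0.12 for those without it, and 0.07 and 0.09 for members with and without CCGGAAG. GAGGAAGT was held by 5 of 70 (7.14%), beside 3.69% of genes. Of these, Eif3m and Nop14 were without overlap, and Eif4a3, Pes1 and Rrp15 overlapped. TGANTCA was held by 3 of 70 (4.29%), beside 8.97% of genes. These letters describe the windows and are neither binding sites nor causes. The search was chosen after the values were seen, and no test was made of it.

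**Figure D3:**
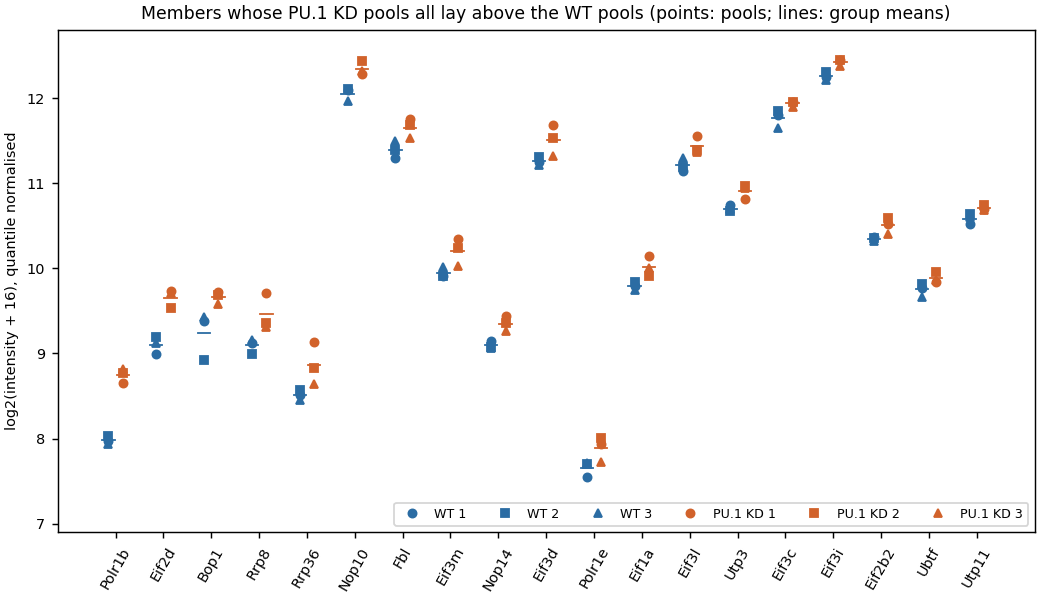
log2(intensity + 16) in each pool (y axis) for the 19 members whose groups did not overlap (x axis, in order of the difference), with WT pools in blue, PU.1 KD pools in orange, 1 symbol per pool number, and lines for group means. Polr1b has the widest gap, 0.62, while in Polr1e, Eif3d and Eif3m the triangle of pool PU.1 KD 3 touches the WT points.

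Cap binding and the eIF4 factors were evenly split at this scaling. Of the 13 members 7 had higher and 6 lower means in PU.1 KD pools, and 0 were without overlap in either direction. The median difference was 0.0074, or -0.02 with the median of probe sets. With median centring 9 (69.2%) had higher means and the median was 0.09, beside 55.8% and 0.03 over all genes. Eif4e, the cap-binding protein, had values of 10.35, 10.11 and 10.34 in WT and 10.21, 10.46 and 10.33 in PU.1 KD pools. Its difference of 0.07 (SE 0.15) has a 95% interval of -0.28 to 0.41. Its inhibitors Eif4ebp1 and Eif4ebp2 differed by 0.07 (SE 0.15) and 0.10 (SE 0.14). Eif4e2, a cap-binding protein that represses translation, differed by 0.33 (SE 0.17) and Eif4e3 by 0.31 (SE 0.21). The scaffold genes Eif4g2 and Eif4g3 differed by -0.19 each (SE 0.16 and 0.14), and Eif4h, a helper of the eIF4A helicase, by -0.04 (SE 0.13). The lowest mean difference of the group, -0.25 (SE 0.29) for the transporter gene Eif4enif1, came from pool PU.1 KD 1 at 9.19, since the other PU.1 KD pools stood at 10.36 and 10.22. It was named after its values were seen.

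The last initiation group holds eIF5A, which helps ribosomes past difficult peptide bonds, and eIF6, which keeps the subunits apart until the large one is mature. Eif5a differed by -0.04 (SE 0.13), Eif5a2 by -0.04 (SE 0.17) and Eif6 by 0.08 (SE 0.17), and each overlapped. The sign of Eif5a turned with values as deposited, to 0.01, and with median centring, to 0.08.

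Pools differed within the groups as well. The median deviation of the 87 members from each gene's mean over the 6 pools was -0.06, -0.09 and -0.01 in WT and 0.07, 0.13 and -0.02 in PU.1 KD pools. Pool PU.1 KD 3 thus lay below pool WT 3, so for the members as a whole the groups overlapped. Pool PU.1 KD 2 was the highest pool for 30 members and PU.1 KD 1 for 24, while PU.1 KD 3 was highest for 2. Of the 19 members without overlap, PU.1 KD 3 was the lowest PU.1 KD pool in 13. Pool PU.1 KD 3 also had the lowest Spi1 value, 7.06. The median difference of the members was 0.13 without PU.1 KD 3 and 0.04 without PU.1 KD 2, beside 0.03 and 0.02 over all genes in the same settings.

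**Figure D4:**
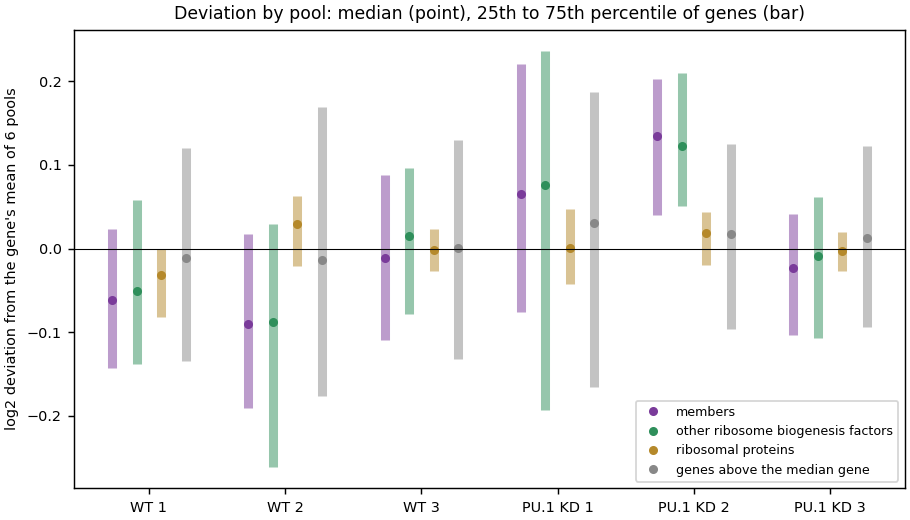
Deviation of each gene from its mean over the 6 pools (y axis, log2) in each pool (x axis), as the median (point) and the range from the 25th to the 75th percentile of genes (bar), for the members, other ribosome biogenesis factors, ribosomal proteins and genes above the median gene. The members' median is highest in pool PU.1 KD 2, at 0.13, and -0.02 in PU.1 KD 3, while that of ribosomal proteins stays between -0.03 and 0.03 in every pool.

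The neighbouring parts of the pathway were read from lists of genes. Of 78 other ribosome biogenesis factors 54 (69.2%) had higher and 24 lower means in PU.1 KD pools, with a median difference of 0.12. Higher means were found in 73.6% of the members and 53.4% of all genes. Of the same 78 factors 16 (20.5%) lay wholly above, beside 21.8% of the members and 8.42% of all genes. Wholly below lay 1 (1.28%), beside 5.39% of all genes. In this list Shq1, an assembly factor of the H/ACA snoRNPs, had values of 8.43, 8.56 and 8.29 in WT and 9.09, 8.93 and 8.80 in PU.1 KD pools (difference 0.51, SE 0.15). Nol6 had the largest difference, 1.10 (SE 0.35), on 1 of its 2 probe sets and with overlapping groups. Nsa2 at -0.30 (SE 0.16) and Rrs1 at -0.26 (SE 0.18) stood on the other side.

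Ribosomal protein genes, which encode the ribosome's own proteins, were evenly split at this scaling. Of 46, 23 had higher and 23 lower means in PU.1 KD pools, with a median difference of 0.0003. Wholly above lay 5 (10.9%) and wholly below 1 (2.17%), beside 8.42% and 5.39% of all genes. This depended on the scaling. With median centring 40 of the 46 (87.0%) had a higher mean, 17 (37.0%) lay wholly above and 0 wholly below, and the median was 0.08. In that setting 72 of the 87 members (82.8%) had a higher mean, 19 (21.8%) lay wholly above and 1 wholly below, with a median of 0.12, beside 55.8%, 9.56%, 4.70% and 0.03 over all genes. With values as deposited 8 ribosomal protein genes (17.4%) and 15 members (17.2%) lay wholly above, beside 5.54% of all genes. The difference between the lists was not tested. Rps16 at 0.83 (SE 0.21) was wholly above and Rps29 at -0.09 (SE 0.13) wholly below, while Rpl39l at 0.38 (SE 0.22) and Rpl27a at -0.15 (SE 0.17) overlapped. Elongation and termination factors, 13 measured, had 7 higher and 6 lower means (5 and 8 with the median of probe sets), with Eefsec, the selenocysteine elongation factor, at 0.55 (SE 0.17) and Eef2k, the kinase that inhibits elongation, at -0.41 (SE 0.20). Abce1, a ribosome recycling factor, at -0.38 (SE 0.27) and Eef1a2 at 0.13 (SE 0.14) overlapped.

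**Figure D5:**
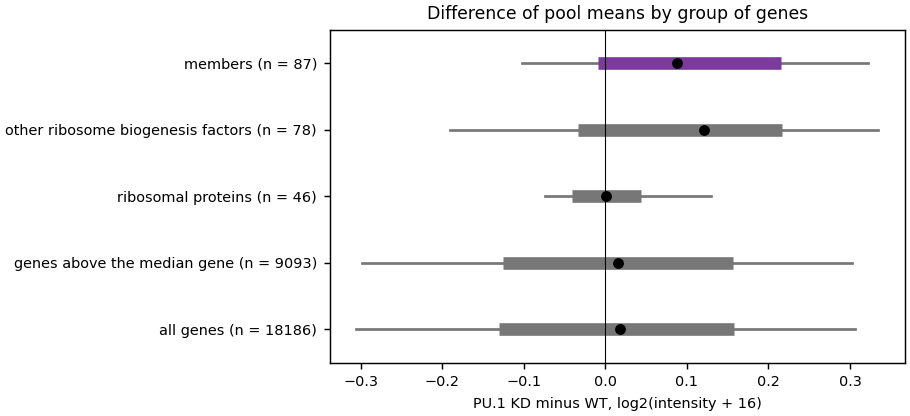
Difference between PU.1 KD and WT pools (x axis, log2(intensity + 16)) over the genes of 5 sets (y axis), with the median as a point, the 25th to 75th percentile as a thick bar and the 10th to 90th as a thin line. The members' median is 0.087 and that of other ribosome biogenesis factors 0.12, beside 0.0003 for ribosomal proteins (0.08 with median centring) and 0.018 for all genes, whose range is wider.

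Regulators of translation were mixed. Of 23 measured genes of mTOR and MNK signalling, which set the activity of eIF4E, 14 had higher and 9 lower means in PU.1 KD pools, and 10 and 13 with the median of probe sets. Deptor, an inhibitor of mTOR, had values of 8.98, 8.69 and 8.72 in WT and 8.32, 8.18 and 7.98 in PU.1 KD pools, wholly below, with a difference of -0.63 (SE 0.16) on the brightest of 6 probe sets, which ranged from -0.63 to 0.34. Pdcd4, an inhibitor of the eIF4A helicase, lay wholly below too, with 11.25, 10.95 and 11.47 in WT and 10.68, 10.92 and 10.70 in PU.1 KD pools (difference -0.46, SE 0.18). Both inhibitors had a limma Benjamini-Hochberg adjusted p above the threshold, 0.51 and 0.68. The kinase gene Rps6ka3 was the third gene wholly below, at -0.40 (SE 0.18). As many genes of the list, 3 of 23, lay wholly above. They were Akt1s1, another inhibitor of mTOR, at 0.26 (SE 0.14), Paip1, a partner of the poly(A)-binding protein, at 0.23 (SE 0.14), and Mknk2, a kinase of eIF4E, at 0.20 (SE 0.13). Akt1s1 and Paip1 each have another probe set of the opposite sign, at -0.09 and -0.23. With the median of probe sets 1 gene of the list lay wholly above (4.35%, beside 8.57% of all genes). In that setting 3 lay wholly below (13%, beside 5.22%). Rps6ka3 and Mknk2 were named after their values were seen. Mtor itself differed by 0.04 (SE 0.14). The 16 genes of the response to eIF2 phosphorylation split 8 to 8, and Atf4, its main transcription factor, was wholly below at -0.21 (SE 0.15). Wars, the cytosolic tryptophan tRNA synthetase, was wholly above at 0.39 (SE 0.18), and Trib3 at 0.59 (SE 0.28) and Ppp1r15a, the phosphatase subunit that reverses the phosphorylation, at -0.47 (SE 0.26) overlapped.

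Myc, a transcription factor known to drive ribosome biogenesis genes, had values of 10.28, 10.38 and 10.26 in WT and 10.95, 10.70 and 10.65 in PU.1 KD pools. The groups did not overlap, and the difference was 0.46 (SE 0.14), with a limma Benjamini-Hochberg adjusted p of 0.59. Mycn and Mycl differed by 0.45 (SE 0.40) and 0.48 (SE 0.22) with overlapping groups, Max, the partner of Myc, by -0.30 (SE 0.18), and Mxd1, a competitor of Myc for Max, by -0.19 (SE 0.17). Of 23 DNA replication and mitosis genes 16 (69.6%) had higher and 7 lower means, beside 53.4% of all genes with a higher mean. Wholly above lay 6 (26.1%), beside 21.8% of the members and 8.42% of all genes, and 0 lay wholly below. Tk1, a thymidine kinase of dividing cells, differed by 0.42 (SE 0.17) and the mitotic motor gene Kif11 by 0.36 (SE 0.18). Tyms at -0.19 (SE 0.17) and Birc5 at -0.10 (SE 0.19) were the lower genes of smallest p, both overlapping. The part of Myc and of cell division in the members' differences was not tested.

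Marker lists of other cells differed between the groups in some cases. Megakaryocyte and platelet markers had a higher PU.1 KD mean in 0 of 7, with a summed intensity of 7359 to 15074 in WT and 2387 to 7733 in PU.1 KD pools. Monocyte and macrophage markers had a higher mean in 0 of 8, with sums of 6029 to 8737 beside 3530 to 6451. Neutrophil markers had a higher mean in 7 of 9, with sums of 23437 to 59239 beside 46413 to 58399, and pool WT 2 lowest. Erythroid markers split 3 of 6 and B lymphoid markers 2 of 6, while T and NK markers had 4 of 5 higher. All 5 T and NK markers overlapped, and 3 of them had a mean below that of the median gene. The 5 markers of mast cells, basophils and eosinophils went opposite ways. Cpa3, a mast cell protease, and Mcpt8, a basophil protease, lay wholly above at 2.05 (SE 0.35, 4.14-fold) and 1.71 (SE 0.46, 3.26-fold). The eosinophil granule genes Epx and Prg2 lay wholly below at -3.69 (SE 0.88) and -3.06 (SE 0.74), and Ms4a2 overlapped at 0.10 (SE 0.27). Within the list of HSC markers, Cd48 and Flt3 are known to mark progenitors rather than HSC. Cd48 had values of 8.95, 9.66 and 9.66 in WT and 10.62, 10.12 and 10.26 in PU.1 KD pools, wholly above, with a difference of 0.91 (SE 0.24) or 1.88-fold. Flt3 overlapped at -0.08 (SE 0.40), as did the HSC gene Mecom, at -0.82 (SE 0.34). None of these markers passed the test. Cpa3, Mcpt8, Epx, Prg2, Ms4a2, Cd48, Flt3 and Mecom were named after their values were seen. Stromal and endothelial markers had 3 of 6 higher, and 5 of the 6 had a mean below that of the median gene. The part of these cells in the members' differences was not tested.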

How the data were processed

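HSC RNA of 3 WT and 3 PU.1 KD pools was hybridised to 1-colour arrays. The values deposited by the authors are processed linear intensity values, 1 per probe set and array. The sources used here do not name the software, background correction or scaling. Pools of separate animals, per the labels, served as replicates, and with so few of them the precision is limited.

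Intensities under 1 were set to 1 and log2(value + 16) of the deposited values was taken. Array medians on that scale differed by over 0.1, so arrays were quantile normalised. Each of 44991 probe sets entered a limma fit (version 3.58.1, R 4.3.3; lmFit, then eBayes). Its two-sided p-values were adjusted by Benjamini-Hochberg, with a threshold of 0.05. The fit was first tested on simulated data. Of the probe sets 34921 had 1 gene symbol in the platform annotation, 930 several and 9140 none. All 87 members were found in the RefSeq gene table (GRCm38.p6), and 0 symbols were updated. The array has no genome build, so coordinates are given for RefSeq promoter windows alone. Motif searches used Python 3.11.15, and plots matplotlib 3.10.9.

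Members, lists and tests were chosen with earlier results of these data known. The motif search and the background of genes above the median gene were chosen after the values were seen. Named by rule were members with an unadjusted p under 0.05, in each role group the gene of highest mean and up to 2 of smallest p per direction, a set of core genes (Ncl, Npm1, Fbl, Ubtf, Rrn3, Eif4e, Eif4ebp1, Eif4ebp2, Eif2s3x, Eif2s3y, Eif6, Dkc1), and in each other list up to 2 genes of smallest p per direction with Spi1, Myc, Mycn, Mtor, Atf4 and Xist. Further names, among them members without overlap, were chosen after their values were seen. Marker lists covered HSC, monocytes, neutrophils, megakaryocytes, erythroid, B, T and NK, mast and eosinophil, and stromal and endothelial cells.

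Alternatives were values as deposited, median centring, pseudocounts of 1 and 64, a filter at the 40th percentile of the mean, eBayes with trend and robust fitting, array weights, a replicate block, the median of probe sets, no probe sets ending in _x_at or _s_at, and each pool left out in turn.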

Additional observations from a re-analysis of the deposited data

How the results depend on the processing

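With 3 pools a group, the members' median difference of 0.087 was smaller than the SE of each member. Among the members without overlap the difference ranged from 0.985 times its SE for Ubtf to 5.80 times for Polr1b. The number of members past the threshold was 0 under each of the 16 alternatives, and no named gene passed under any. The median difference of the members kept its sign, from 0.043 (without pool PU.1 KD 2) to 0.134 (without PU.1 KD 3), and was 0.045 with values as deposited beside -0.042 over all genes. The count wholly above was 11 with the median of probe sets (12.6%, beside 8.57% of all genes), 15 with values as deposited (17.2% beside 5.54%), 16 of 85 without _x_at and _s_at probe sets (18.8% beside 8.60%) and 19 to 31 with a pool left out (21.8% to 35.6%, beside 12.6% to 16.02%). The count wholly below was 2 with values as deposited (2.30%, beside 8.29% of all genes) and 1 with median centring (1.15% beside 4.70%). It was 2 with the median of probe sets (2.30% beside 5.22%). With a pool left out it was 1 to 4, where the share of all genes is 8.89% to 12.5%. Members with an unadjusted p under 0.05 numbered 2 (2.30%) with a pseudocount of 1 and 12 (13.8%) with 64. With trend and robust eBayes they numbered 8 (9.20%) and with the replicate block 2 (2.30%). In these settings all had the higher mean, beside 3.55%, 5.28%, 4.44% and 3.55% of all genes with such a p and a higher mean. Values as deposited gave 2 higher (2.30%, beside 2.5% of all genes) and 1 lower. Array weights and the median of probe sets each gave 3 higher (3.45%, beside 5.13% and 4.38%) and 1 lower. Median centring gave 6 higher (6.9%, beside 4.43%) and the 40th percentile filter 5 (5.81%, beside 4.77%), with 0 lower. Without _x_at and _s_at probe sets 3 were higher (3.53%, beside 4.19%) and 0 lower. With a pool left out members with such a p numbered 2 to 7, of which at most 1 had the lower mean. There 2.90% to 5.37% of all genes had such a p and a higher mean. Correlations of deviations between WT and PU.1 KD pools of the same number were 0.178, 0.061 and -0.039 for numbers 1 to 3. Between pools of unlike numbers they were -0.20 to 0.15. With 3 pools a group these values cannot show whether the numbers pair the pools. Spi1 was lower under each alternative, from -2.08 to -1.23. The sign changed under at least 1 alternative for 23 of 45 named members and 8 of 33 named genes of other lists, and the cause was not tested. With values as deposited Eif3f was 0.015, Eif5a 0.012 and Mtor -0.031. With median centring Eif3f was 0.088, Eif4h 0.066, Eif5 0.0025, Eif5a 0.085, Npm1 0.0011, Polr1d 0.052 and Xist 0.030. With array weights Eif3f was 0.0062, Polr1d 0.018 and Xist 0.15, and with a pseudocount of 1 Xist was 0.013. With the median of probe sets Eif2ak3 was 0.052, Eif4e2 -0.016, Eif4ebp2 -0.031, Eif4h 0.065, Npm1 0.0098, Polr1d 0.070, Rrp1b 0.21, Abce1 0.018, Mtor -0.20, Mxd1 0.31, Nsa2 0.073 and Tyms 0.17. Without _x_at and _s_at probe sets Eif1a was -0.13, Eif4h 0.12 and Abce1 0.018. With a pool left out the ranges were -0.013 to 0.22 for Dkc1, -0.23 to 0.10 for Eif2ak4, -0.32 to 0.13 for Eif2s3x, -0.77 to 1.23 for Eif2s3y, -0.052 to 0.026 for Eif3f, -0.014 to 0.13 for Eif4e, -0.030 to 0.13 for Eif4ebp1, -0.085 to 0.0051 for Eif4h, -0.11 to 0.0082 for Eif5, -0.17 to 0.040 for Eif5a2 and -0.025 to 0.22 for Eif6. They were -0.080 to 0.17 for Nop53, -0.074 to 0.052 for Polr1d, -0.27 to 0.026 for Rrn3, -0.30 to 0.045 for Rrp1b, -0.20 to 0.084 for Utp18, -0.21 to 0.0068 for Utp4, -0.24 to 0.029 for Birc5, -0.43 to 1.37 for Kdm5d, -0.030 to 0.092 for Mtor and -1.76 to 1.60 for Xist.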
